A study of Mus musculus with 9 samples.

Results

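The genes described here encode the machinery that moves newly made proteins into the endoplasmic reticulum (ER) and between the ER and the Golgi apparatus, measured as poly-A RNA in ovulated mouse eggs. Members were the protein-coding genes whose symbols match the Tmed, Sec13, Sec16, Sec22, Sec23, Sec24, Sec31, Sec61, Sec62 and Sec63 names, the COPI coat names (Copa to Copz2) and Arf1 to Arf6. The rule found 46 genes among 18483 protein-coding genes and 30153 genes in all. They fell into 6 classes by name, with 6 translocon genes, 12 COPII genes, 8 COPI genes, 11 Tmed genes, 3 Sec22 genes and 6 Arf genes. No measured value entered the rule.

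Secreted and membrane proteins enter the ER through the Sec61 channel and leave it in vesicles coated by COPII, which assembles from a Sec23-Sec24 inner layer and a Sec13-Sec31 outer layer at exit sites organised by Sec16. COPI, a coat recruited by Arf GTPases, returns cargo receptors and escaped residents to the ER, and the Tmed (p24) proteins are membrane receptors that shuttle in both kinds of vesicle. A growing oocyte uses this route for its zona pellucida proteins, its secreted growth factors and its cortical granules. The ovulated egg makes almost no new RNA, so its RNA was mostly made during growth. Its poly-A RNA also depends on tail length and on decay after growth, which were not measured here.

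The study picked metaphase II eggs by a fluorescent reporter and sequenced them in pools. This allows the poly-A RNA of eggs with and without Cre activity in their past to be compared. All donors were Sycp3CreERT2/+; Rosa26nT-nG/+ females of mixed genetic background, 4 weeks old, given 5 IU of PMSG and, 48 h later, 5 IU of hCG, with eggs recovered 13 h after hCG. The control group, RFP, carried the same Cre and reporter alleles as both GFP groups. Sycp3CreERT2 places a tamoxifen-dependent Cre recombinase under Sycp3, a gene of meiotic cells, and the nT-nG reporter changes from nuclear red to nuclear green fluorescence once Cre has acted. Hyaluronidase was used to strip the cumulus cells, and the eggs were sorted by hand and by eye into GFP High, GFP Low and RFP. Each group had 3 pools, of 15 to 16 eggs in GFP High, 49 to 57 in GFP Low and 87 to 100 in RFP. Pool size therefore differed between the groups and cannot be told apart from them. The labels do not say whether pools came from separate females. The p-values therefore weigh group differences against the spread between these pools, which may not be the spread between females.

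Library totals ranged from 19381677 to 27746256 counts. The 12 oocyte markers summed to between 11300 and 13300 CPM (read counts scaled to the library total) in every library. The 15 cumulus and granulosa markers summed to 112 to 220 CPM, most of it Nr5a2 and Cyp19a1, which were present throughout. Gja1, Inha, Inhba, Ptx3 and Tnfaip6 together reached 51.9 CPM in RFP 2, 36.3 in GFP High 1 and 34.2 in the first GFP Low pool. They lay at 0 to 8.64 CPM in the other 6 libraries, so 1 library of each group stood apart by these genes. These genes were picked from the 15 after the data were seen. Of the rest, Ptgs2 was highest in the same library of each group, but others were not. Fshr and Has2 were highest in GFP High 3 (2.25 and 1.08 CPM), Cyp11a1 and Star in RFP 1 (3.21 and 1.92), and Lhcgr in GFP High 2 (1.87). Blood markers summed to 0.309 to 1.39 CPM (2 of 7 matched) and oviduct markers to 0 to 2.54 CPM (3 of 4 matched, Ovgp1 under 3 counts in each library). In pooled eggs, fewer cells carrying a transcript and less of it in each cell cannot be told apart.

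Most of the machinery was well represented in the egg. Of the 46 genes, 41 had at least 3 counts in all 9 libraries, and 37 lay above the median protein-coding gene, which stood at 0.844 RPKM, the CPM divided by the gene length in kilobases. The top 10 percent of protein-coding genes held 8 of them: Arf1, Tmed2, Sec62, Arf3, Tmed9, Sec16a, Arf6 and Copb2. The members together took 0.333% to 0.353% of all counts of a library. The highest library was under 1.5 times the lowest for 17 of the 46 genes and under 2 times for 31. Other members ranged more widely, such as 3.4 times for Sec61g and 8.9 times for Tmed4.

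Among the Arf GTPases, Arf1, which recruits COPI to Golgi membranes, was the most abundant member. Arf1 stood at 209, 287 and 248 RPKM in GFP High 1 to 3, at 215, 234 and 255 in GFP Low, and at 220, 209 and 225 in RFP. The 3 groups overlapped, with GFP High 2 the highest library and RFP 2 the lowest. Arf3, a close relative of Arf1, measured 49.4, 54.4 and 55.5 RPKM in the GFP High pools, 49.02, 49.7 and 54.7 in the GFP Low pools, and 50.4, 48.7 and 50.5 in the RFP pools. Its libraries were almost level across the groups. Arf6, which acts mainly at the plasma membrane and in endocytosis, averaged 40.4 RPKM, while Arf5, Arf4 and Arf2 averaged 6.78, 0.998 and 0.577. Of the summed level of the family per length, Arf1 made up 67.9% to 74.5%, Arf3 14.1% to 16.1% and Arf6 9.80% to 13.5%. The coding sequences of Arf1 and Arf3 are 83.6% identical and share no exact run longer than 29 bases. That run lies at coding base 238 of both and is shown as the longest exact match of the coding sequences (GENCODE M21 transcripts, 5′ to 3′):
Arf1 and Arf3 shared run: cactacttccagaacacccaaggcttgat

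The COPI coat has 7 subunits, of which the naming rule covers 6. Copb2, the beta-prime subunit, stood at 32.5, 29.5 and 35.9 RPKM in GFP High 1 to 3, at 36.3, 36.2 and 34.5 in GFP Low, and at 36.1, 33.7 and 37.7 in RFP. GFP High 2 was the lowest library and the groups overlapped. Copb1, the beta subunit, measured 18.97, 24.5 and 24.3 RPKM in the GFP High pools, 22.4, 19.8 and 18.3 in the GFP Low pools, and 23.3, 21.9 and 19.98 in the RFP pools, again with overlap. With paralogs summed, the mean over 9 libraries was 34.7 RPKM for beta-prime, 23.02 for zeta, 21.5 for beta, 12.1 for gamma, 8.29 for alpha and 3.95 for epsilon. Arcn1, the delta subunit, is not a member and averaged 31.4 RPKM. The highest member subunit exceeded the lowest by 9.38 ± 2.13 times (SD over 9 libraries), and by 7.71 times on average with the length of each gene's principal transcript in place of the deposited gene length. With the deposited gene lengths, the gamma subunit was supplied almost evenly, 53.5% on average from Copg1 and 46.5% from Copg2. That split rests on length: with principal transcript lengths, Copg1 averaged 17.2 RPKM and Copg2 7.31. Copg2 also shares 912 exon bases with Mest on the other strand, a gene with 181% as many counts. Zeta came mainly from Copz1, with Copz2 at 1.86% to 16.1%.

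Among COPII genes, the exit-site scaffold Sec16a led. It stood at 39.8, 45.95 and 43.6 RPKM in GFP High 1 to 3, at 43.7, 41.8 and 43.5 in GFP Low, and at 45.98, 42.1 and 47.1 in RFP, with overlapping groups. Sec13, an outer-coat subunit that also belongs to the nuclear pore, measured 23.3, 29.0 and 26.8 RPKM in the GFP High pools, 21.5, 20.4 and 25.1 in the GFP Low pools, and 19.8, 22.8 and 21.0 in the RFP pools. The 3 GFP High pools lay above the 3 RFP pools for Sec13 and overlapped GFP Low. The 4 coat subunits, paralogs summed, lay close together at 23.3 RPKM for Sec13, 18.3 for Sec31, 17.8 for Sec24 and 13.7 for Sec23. Their highest to lowest ratio was 1.76 ± 0.257 (SD, 9 libraries) and became 3.30 with principal transcript lengths, so their near equality depended on the length used. Within pairs one gene dominated: Sec23a gave 90.4% to 97.2% of Sec23, Sec31a 99.0% to 100.0% of Sec31, and Sec16a 94.7% to 98.7% of Sec16. The cargo-binding Sec24 proteins were spread over 4 genes, on average 46.6% Sec24b, 25.8% Sec24c, 15.5% Sec24a and 12.2% Sec24d. Sec23ip, a partner of Sec23 at exit sites, averaged 10.3 RPKM.

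Of the translocon genes, Sec62, a channel partner in post-translational import, was highest. Sec62 stood at 57.0, 51.6 and 56.6 RPKM in GFP High 1 to 3, at 64.8, 63.7 and 57.6 in GFP Low, and at 65.9, 64.2 and 54.2 in RFP. The 3 GFP Low pools lay above the 3 GFP High pools, and RFP spanned both. Sec61b, the small beta subunit of the channel, measured 20.7, 13.2 and 16.0 RPKM in the GFP High pools, 20.6, 20.5 and 20.9 in the GFP Low pools, and 18.8, 22.1 and 17.5 in the RFP pools, with the groups overlapping. The channel subunits averaged 18.9 RPKM for beta, 14.3 for gamma and 11.1 for alpha, the last almost all from Sec61a1 (98.3% to 100.0%). With principal transcript lengths, gamma and alpha changed places, at 42.6 RPKM for beta, 23.5 for alpha and 18.97 for gamma. Sec63, the DnaJ-domain partner of Sec62, averaged 6.17 RPKM.

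The Tmed family holds 4 subfamilies whose members assemble with one another. Tmed2, the single beta member, stood at 66.4, 81.4 and 83.2 RPKM in GFP High 1 to 3, at 61.4, 62.4 and 65.3 in GFP Low, and at 66.2, 75.8 and 64.6 in RFP. All GFP High pools were above all GFP Low pools, and RFP overlapped both. Tmed9, of the alpha subfamily, measured 52.7, 54.7 and 50.6 RPKM in the GFP High pools, 37.2, 40.0 and 42.4 in the GFP Low pools, and 56.6, 41.5 and 39.3 in the RFP pools. Here GFP High was again above GFP Low without overlap, and RFP 1 was the highest library of all 9. Tmed10, the delta member, averaged 22.96 RPKM, and the gamma members Tmed1, Tmed3, Tmed5, Tmed6 and Tmed7 summed to 7.11. That order rests on length: with principal transcripts, Tmed9 averaged 112 RPKM, Tmed10 90.03 and Tmed2 84.8. Of the 12 members with the highest level, 11 were also among the highest 12 with principal transcript lengths, and Arf1 led under both.

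The Sec22 family includes Sec22b, a SNARE that fuses ER and Golgi carriers, and 2 relatives that lack the SNARE motif. Sec22a stood at 18.8, 16.3 and 17.7 RPKM in GFP High 1 to 3, at 16.8, 18.4 and 19.7 in GFP Low, and at 17.2, 18.8 and 18.3 in RFP, with full overlap. Sec22b measured 6.96, 7.35 and 7.51 RPKM in the GFP High pools, 7.12, 5.49 and 6.79 in the GFP Low pools, and 6.11, 6.83 and 6.48 in the RFP pools. The GFP High pools lay just above the RFP pools. Sec22a, the relative without the motif, thus made up 67.7% of the family's summed level on average, Sec22b 25.4% and Sec22c 6.94%.

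At the low end, 5 genes were below 3 counts in at least 1 library. Sec61a2 had 0 counts in all 3 GFP High libraries, where 0 allows up to 0.110 to 0.135 CPM, and 17, 7 and 4 counts in GFP Low 1 to 3 and 13, 2 and 5 in RFP. Sec31b had at most 16 counts in a library, Tmed11 at most 8 and Tmed1 at most 3. Sec61a2 shares 909 exon bases with Nudt5 on the other strand, and Tmed1 shares 207 with Dnm2. Whether counting used strand is not given in the sources used here, so the source of such few reads is uncertain.

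**Figure D1:**
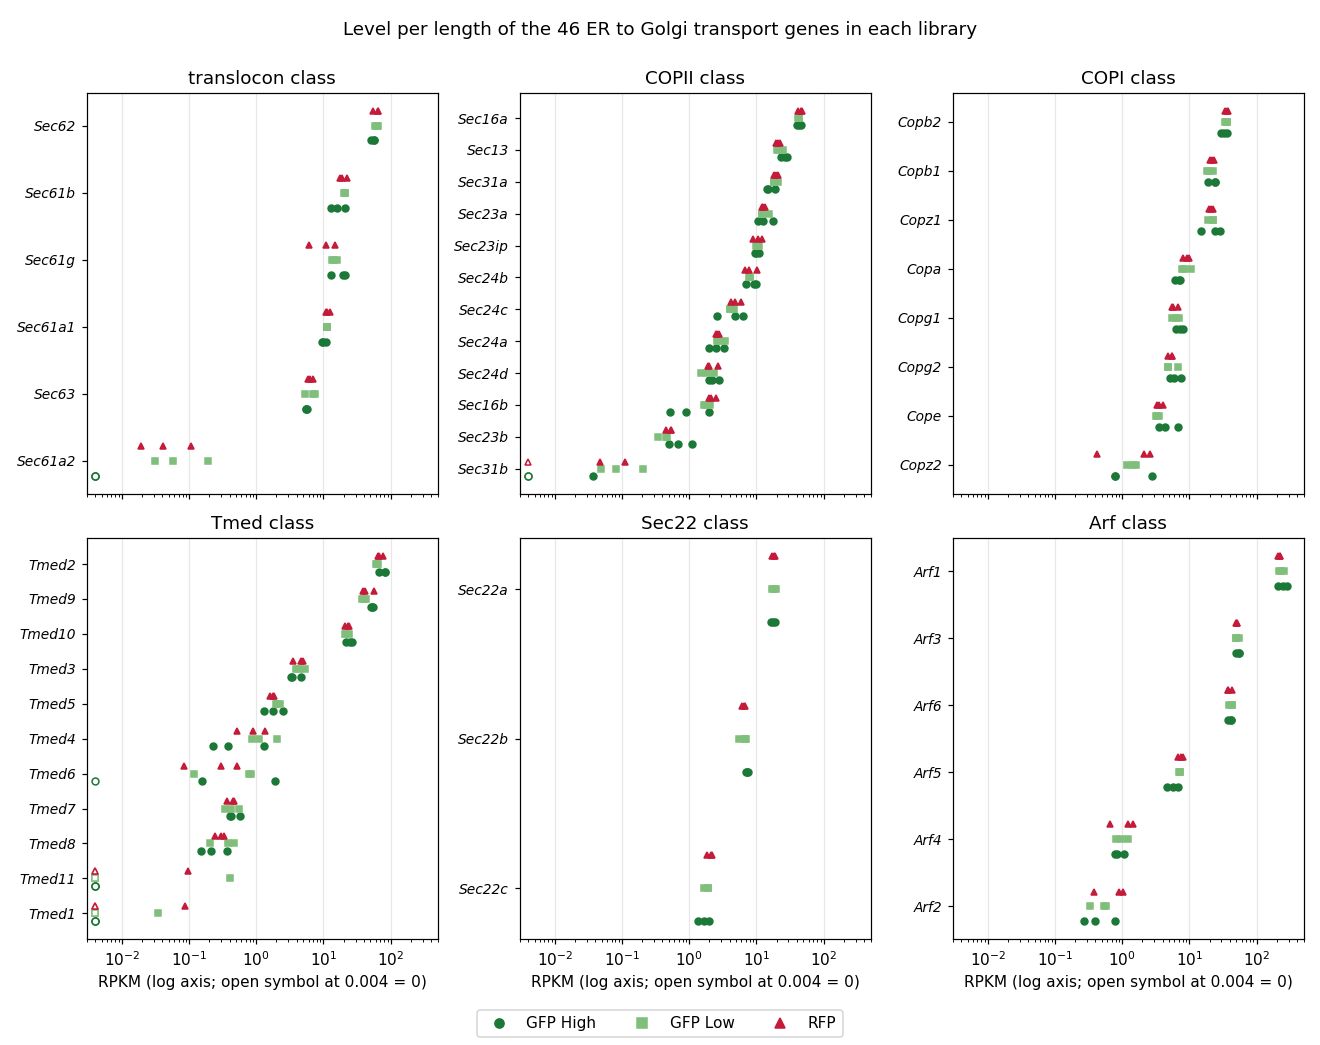
Level per length of each of the 46 genes in the 9 libraries, by class, as RPKM on a log axis; each symbol is 1 library, coloured and shaped by group, and open symbols at the left edge stand for 0. Arf1 stands highest, at 209 to 287 RPKM, and the libraries of most genes lie close together.

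Sequence near the start sites was examined as a feature the naming rule did not use. Promoters from 250 bases before to 50 bases after the start were found for 41 of the 46 genes (RefSeq, build GRCm38.p6), 48 promoters in all, and 10 motifs were searched on both strands. TGACGTGG, the core of the element that ATF6 and XBP1 bind in the unfolded protein response, was present in 6 of 41 genes (14.6%), against 0.714% of all 27025 genes with a promoter in the table and 0.963% of the genes tested for expression. Its 6-letter part ACGTGG was present in 21 of 41 (51.2%), against 9.40% of all and 12.6% of tested genes. CCACG, which overlaps both, was present in 30 (73.2%), against 35.5% of all genes and 49.6% of tested genes. CCAAT was at 41.5% against 41.1% of all genes, and the full ER stress response element, CCAAT and CCACG with 9 bases of any kind between them, was in none of 41 (0.137% of all genes). For the other 5 motifs, members and all genes stood at 2.44% and 2.03% for TGACGTCA, 14.6% and 8.09% for CACGTG, 70.7% and 38.2% for GGGCGG (63.7% of tested genes), 2.44% and 15.7% for TATAAA, and 4.88% and 0.525% for the palindrome made of TCTCG and its reverse complement. A match describes letters and shows no binding. The windows with TGACGTGG are shown because this motif had the largest ratio to the background among the 10, with its letters in capitals on the gene's strand (CCACGTCA where it reads on the other strand), 5′ to 3′:
Arf1 chr11:59228228-59228257 (-): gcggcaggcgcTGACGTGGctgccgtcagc
Copb1 chr7:114254690-114254719 (-): cccgcccccttCCACGTCAgccaaggactt
Copb2 chr9:98563713-98563742 (+): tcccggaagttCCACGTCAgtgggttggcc
Sec16b chr1:157506741-157506770 (+): ttctgtgtggcTGACGTGGcacggcagttt
Sec23a chr12:59011993-59012022 (-): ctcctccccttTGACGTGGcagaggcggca
Sec24d chr3:123267459-123267488 (+): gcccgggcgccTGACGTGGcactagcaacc

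These 6 genes belong to the COPI, COPII and Arf classes, and none is among the Tmed and translocon genes that were matched. Tmed2, Tmed7, Tmed11, Sec61a1 and Arf6 were not searched. The motif began 28 bases before the start in Copb1, 7 before in Copb2, 44 before in Sec16b and 26 before in Sec24d, and within the first transcribed bases in Arf1 and Sec23a. Their average levels ran from 1.72 RPKM for Sec16b, which ranked 34 of 46, to 234 for Arf1, which ranked first.

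Reads of 2 members may be divided with near-identical gene copies. The processed pseudogene Gm10698 (GRCm38 chromosome 9, 33728247 to 33728850) matches 602 of the 603 coding bases of Tmed2 in 1 unbroken run, and it took 27.9% to 33.6% of the counts of the pair in each library. Gm10177 (chromosome 9, 37252922 to 37253365) holds the whole 204-base coding sequence of Sec61g, the gamma subunit of the channel, and took 23.3% to 32.3%. Tmed10-ps shares a run of 300 bases with Tmed10 and took at most 3.32%. In all, 7 of 46 members have another annotated gene at 95% identity or more over at least 150 bases. The first 150 coding bases of Tmed2 and the complete coding sequence of Sec61g are shown because reads from them fit both loci (GENCODE M21, 5′ to 3′; the shared run starts at coding base 2 of Tmed2 and at base 1 of Sec61g):
Tmed2: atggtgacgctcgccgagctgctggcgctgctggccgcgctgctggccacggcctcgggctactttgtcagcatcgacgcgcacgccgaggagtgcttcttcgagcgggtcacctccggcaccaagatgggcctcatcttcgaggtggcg
Sec61g: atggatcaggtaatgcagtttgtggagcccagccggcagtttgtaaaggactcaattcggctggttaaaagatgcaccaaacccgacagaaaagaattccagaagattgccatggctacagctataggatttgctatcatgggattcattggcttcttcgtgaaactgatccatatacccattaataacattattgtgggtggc

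The summed level of each class was then compared between the groups as a description. The Tmed class summed to 156, 166 and 163 RPKM in GFP High 1 to 3, to 127, 133 and 143 in GFP Low, and to 154, 146 and 136 in RFP. The GFP High pools were the highest 3 of the 9, above every GFP Low and RFP pool. Their mean was 162 ± 5.41 against 134 ± 7.68 and 145 ± 8.81 (SD, n = 3). GFP High 1, at 156, was close to RFP 1, at 154. Every class was looked at, and how often sums of other gene sets separate in this way was not computed. Tmed2 made up 42.6% to 51.9% of the Tmed sum and Tmed9 28.4% to 36.8%. The sum, the order of the pools and these shares were computed with the deposited gene lengths only. With principal transcript lengths, Tmed9 averaged more than Tmed2, at 112 against 84.8 RPKM. The oocyte markers were also somewhat higher in GFP High, at 11900 to 13300 CPM against 11300 to 12000 in GFP Low and 11400 to 11800 in RFP, and their part in the result was not tested. COPII summed to 129 ± 8.69 RPKM in the GFP High pools, 127 ± 3.91 in the GFP Low pools and 130 ± 6.93 in the RFP pools. In the same order, COPI summed to 104 ± 4.79, 103 ± 3.03 and 104 ± 3.15 RPKM. The translocon class followed with 105 ± 6.45, 115 ± 3.43 and 110 ± 10.8 RPKM, the Sec22 class with 26.5 ± 0.896, 26.6 ± 1.36 and 26.6 ± 1.04, and the Arf class with 348 ± 39.3, 336 ± 21.1 and 317 ± 11.3. For these 5 classes the GFP High pools overlapped the RFP pools.

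**Figure D2:**
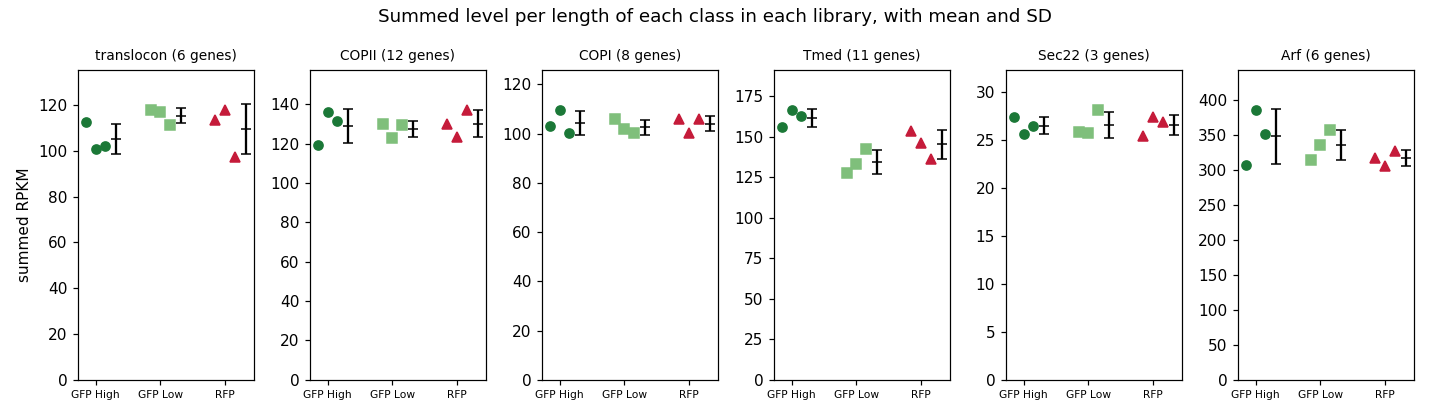
Summed RPKM of each class in each library (symbols, replicates 1 to 3 from left to right), with mean and SD per group. The 3 GFP High pools lie above the other 6 in the Tmed panel, at 156 to 166 RPKM, with RFP 1 close below at 154. The coat classes are nearly level.

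In GFP High against RFP, no member changed past the threshold. Of 41 tested, 20 were fitted higher in GFP High and 21 lower, with a median log2 fold change of -0.02 against -0.01 over all tested genes. None was called at an adjusted p of 0.05 with edgeR's quasi-likelihood test (lowest adjusted p 0.997), where 0.0135% of all tested genes were called, and DESeq2 and limma-voom called none either. An unadjusted p under 0.05 was reached by 4 members (9.76%; 4.09% of all tested genes), and the 2 sets of 3 pools did not overlap for 6 members (14.6%; 11.9% of all). No member was past a 2-fold fitted change (10.1% of all). The 6 without overlap were Sec13 and Sec22b, higher in GFP High, and Arf5, Copa, Sec16b and Sec63, lower. Arf5 shares 313 exon bases with Gcc1 on the other strand, a gene with 180% as many counts.

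Copa, the alpha subunit of COPI, had the smallest p. Its CPM was 65.2, 58.3 and 69.3 in GFP High 1 to 3 and 87.8, 75.9 and 91.8 in RFP. All GFP High pools lay below all RFP pools, with a fitted log2 fold change of -0.40 (SE 0.13) and an unadjusted p of 0.0123 that became 0.997 after adjustment in edgeR. In the authors' deposited table, Copa likewise had the lowest adjusted p of the members, 0.383. Copa shares 195 exon bases with Ncstn on the other strand, a gene with 20.6% as many counts as Copa.

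Sec61g stood at 48.5, 50.8 and 32.4 CPM in GFP High and at 26.7, 36.7 and 15.0 in RFP. GFP High 1 and 2 were above every RFP pool, GFP High 3 was not, and RFP 3 was the lowest. The fitted change was 0.75 (SE 0.31), with an unadjusted edgeR p of 0.0339 and an adjusted p of 0.997. Adding the counts of Gm10177 left it at 0.75 (SE 0.30). Leaving out 1 library at a time gave 0.47 (without RFP 3) to 1.08.

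The outer COPII subunits were fitted in opposite directions. Sec13 was at 74.2, 92.4 and 85.2 CPM in GFP High and at 63.2, 72.6 and 66.8 in RFP, apart from one another, with a change of 0.32 (SE 0.13; unadjusted edgeR p of 0.0361 and adjusted p of 0.997). Sec31a, its partner in the outer layer, was at 114, 116 and 149 CPM in GFP High and 155, 145 and 166 in RFP. For Sec31a, GFP High 3 lay above RFP 2, so the groups overlapped, and the change was -0.29 (SE 0.13; unadjusted edgeR p of 0.0469 and adjusted p of 0.997). Sec16b, named after its values were seen, was at 2.78, 4.84 and 10.7 CPM in GFP High and 13.8, 11.3 and 10.8 in RFP. The third GFP High pool was nearly level with the lowest RFP pool, and the change of -0.96 (SE 0.45) had an edgeR p of 0.0594, adjusted 0.997.

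Precision set the size of change that could be seen. For the 27 members with at least 20 CPM, the 95% interval of the log2 fold change had a median half-width of 0.29, and it lay inside a 2-fold change either way for 26 of them, the exception being Sec61g with an upper bound of 1.44. For members below that level the intervals were wider, such as -2.37 to 1.03 for Arf2 and -2.47 to 1.44 for Tmed4. The lack of a call therefore says little about such rare transcripts.

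In GFP Low against RFP, no member reached an unadjusted p under 0.05 in the main edgeR test. Among the named members, Sec61g did in some other settings. Tmed9 did in edgeR without RFP 3 (unadjusted p of 0.0309, adjusted 0.999) and without a low-count filter (unadjusted p of 0.0407, adjusted 0.818). Of 42 tested, 20 were fitted higher in GFP Low and 22 lower, with a median log2 fold change of -0.00131 against -0.00409 over all tested genes. None was called with edgeR (0.0197% of all tested genes were) and none with DESeq2 or limma-voom, and 2.62% of all tested genes had an unadjusted p under 0.05. The pools did not overlap for 1 member (2.38%; 7.68% of all), Tmed5, and no member was past a 2-fold fitted change (3.9% of all). All 27 members with at least 20 CPM had a 95% interval inside a 2-fold change, with a median half-width of 0.24.

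Tmed5, a gamma member of the p24 family, was at 15.3, 15.7 and 17.4 CPM in GFP Low 1 to 3 and at 13.5, 12.2 and 14.1 in RFP. The 3 GFP Low pools were the higher, with a change of 0.28 (SE 0.16; unadjusted edgeR p of 0.0925 and adjusted p of 1.00). It shares 395 exon bases with Mtf2 on the other strand, which had 354% as many counts. Sec61g was at 32.7, 35.2 and 39.8 CPM in GFP Low against the RFP values above, overlapping through RFP 2, with a change of 0.46 (SE 0.24; unadjusted edgeR p of 0.0802 and adjusted p of 1.00). Without the 3 libraries that stood apart by cumulus genes this was 0.85 (unadjusted edgeR p of 0.00647 and adjusted p of 0.999), and leaving out single libraries gave 0.18 (without RFP 3) to 0.79 (without RFP 2). Tmed9 was fitted at -0.20 (SE 0.12; unadjusted edgeR p of 0.137 and adjusted p of 1.00), and leaving out 1 library at a time gave -0.30 (without RFP 3) to -0.02 (without RFP 1).

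Between the GFP groups, Tmed9 had the smallest p of the members, followed by Copa and Tmed2, and no member passed the threshold with edgeR. Of 42 tested, 23 were fitted higher in GFP High and 19 lower, with a median log2 fold change of 0.03 against -0.00479 over all tested genes, and the members' median was at or below 0 under several other settings. None was called with edgeR (0.0% of all tested genes) or limma-voom, while DESeq2 called 1, Tmed9 (0.0936% of the 17097 genes with an adjusted p there). An unadjusted p under 0.05 was reached by 3 (7.14%; 3.77% of all), and the pools did not overlap for 8 of the 42 (11.5% of all). Of these 8, Tmed9, Tmed2, Cope and Sec23b were higher in GFP High, and Copa, Arf5, Sec61a1 and Sec62 were lower. Tmed4, an alpha member with a mean of 1.39 CPM in the GFP High pools and 2.88 in the GFP Low pools, was alone past a 2-fold fitted change, at -1.05 (SE 0.83), against 10.4% of all tested genes.

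Tmed9 was at 181, 188 and 174 CPM in GFP High 1 to 3 and at 128, 138 and 146 in GFP Low. The lowest GFP High pool lay well above the highest GFP Low pool. The change was 0.40 (SE 0.09, 95% interval 0.19 to 0.61), with an unadjusted edgeR p of 0.00153 and an adjusted p of 0.998. DESeq2 gave 0.41 with an adjusted p of 0.0491, and the authors' deposited table gives 0.41 with an adjusted p of 0.0597. RFP, at 195, 143 and 135 CPM, spanned both GFP groups, and the change without the 3 libraries that stood apart by cumulus genes was 0.35 (unadjusted edgeR p of 0.0193 and adjusted p of 0.999).

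Tmed2 was at 168, 206 and 210 CPM in GFP High and 155, 158 and 165 in GFP Low. GFP High 1 was close to the GFP Low pools and the other two stood higher, and the change was 0.29 (SE 0.11; unadjusted edgeR p of 0.0208 and adjusted p of 0.998). With the counts of Gm10698 added, it was 0.25 (SE 0.10; unadjusted edgeR p of 0.0313 and adjusted p of 0.997). Tmed10, the third abundant member of the family, had 152, 143 and 128 CPM in the GFP High pools against 120, 126 and 138 in GFP Low, which overlap, with a change of 0.14 (SE 0.11). Across the Tmed class, 5 of 9 tested genes were fitted higher in GFP High and 4 lower, with a median of 0.11.

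Copa was at 65.2, 58.3 and 69.3 CPM in GFP High and at 101, 79.6 and 74.1 in GFP Low, below it in every pool. The change was -0.40 (SE 0.15; unadjusted edgeR p of 0.0208 and adjusted p of 0.998), and -0.27 (unadjusted edgeR p of 0.138 and adjusted p of 0.999) without the 3 libraries that stood apart by cumulus genes. Without GFP Low 1 alone it was -0.26 (unadjusted edgeR p of 0.120 and adjusted p of 1.00), the smallest of the values without 1 library, which reached -0.50. Copa shares its GFP High pools with the comparison against RFP, so the 2 values are not independent. The other large COPI subunits differed less, with -0.13 (SE 0.10) for Copb2 and 0.17 (SE 0.13) for Copb1. Tmed6, a gamma member, was at 1.68, 0 and 0.135 CPM in GFP High, at 0.103, 0.725 and 0.685 in GFP Low, and at 0.453, 0.263 and 0.0742 in RFP. Its highest value came from GFP High 1 alone, and its change of 0.26 (SE 1.69) turned negative in other settings. Against RFP, GFP Low gave 0.95 (SE 0.95) for Tmed6, and single libraries left out gave 0.50 (without RFP 3) to 1.58 (without RFP 1).

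**Figure D3:**
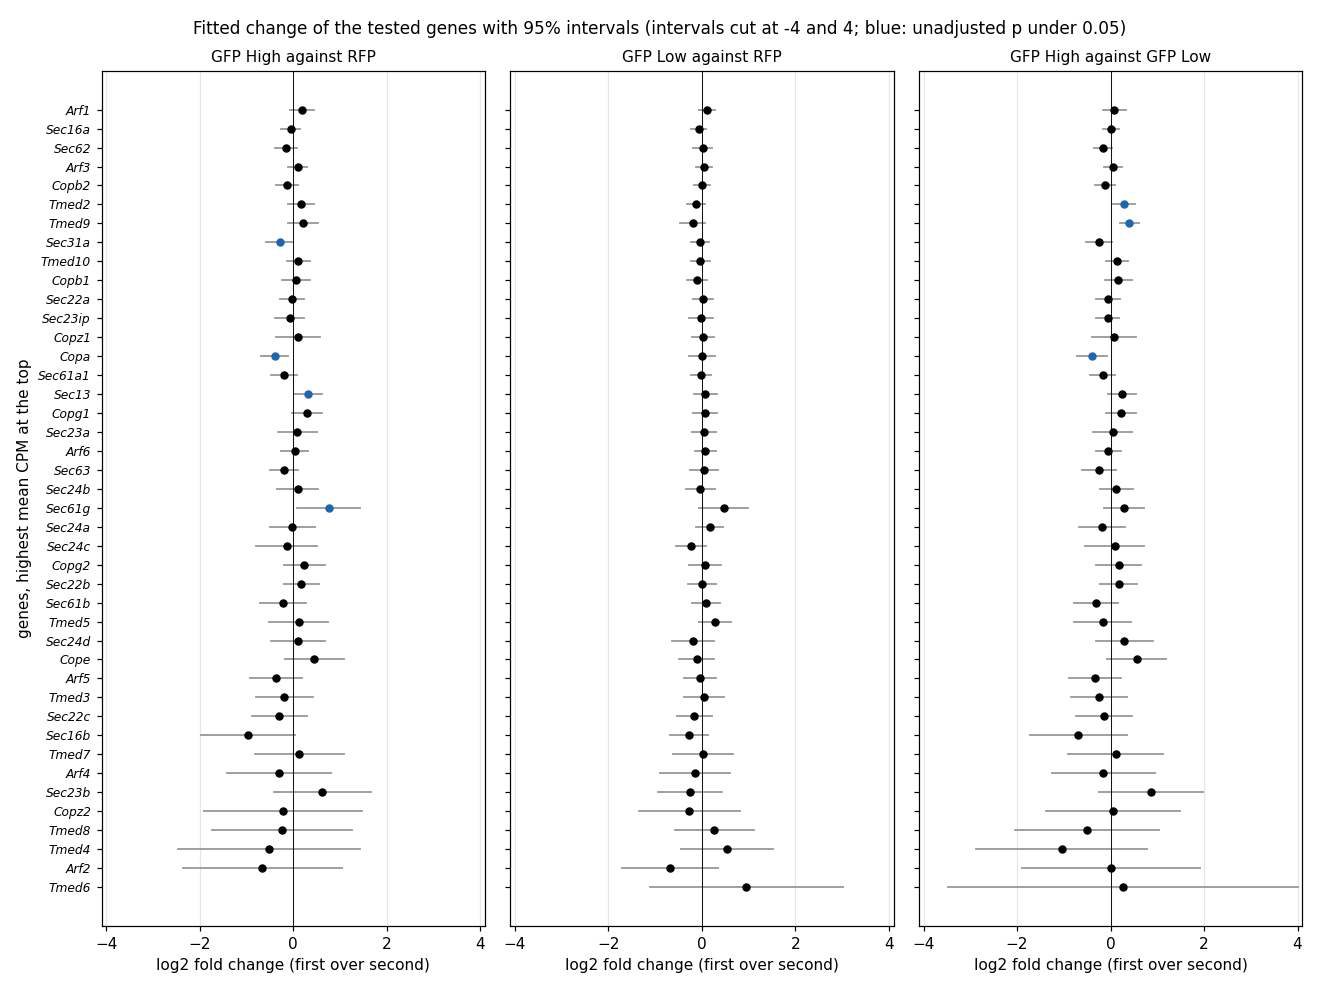
Fitted log2 fold change of each tested gene (points, blue where the unadjusted edgeR p was under 0.05) with its 95% interval in the 3 comparisons, from the highest mean CPM at the top to the lowest. Intervals are narrow for the abundant genes and widen downwards, and no gene passed an adjusted p of 0.05.

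A test of any difference among the 3 groups on all 9 libraries called none of 42 members with edgeR (0.0126% of 15857 genes were called), none with DESeq2 and none with limma-voom. An unadjusted p under 0.05 was reached by Copa (0.0179), Tmed9 (0.0242) and Sec61g (0.0486), 3 of 42 against 4.65% of all genes in edgeR, with a lowest adjusted p of 0.968.

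**Figure D4:**
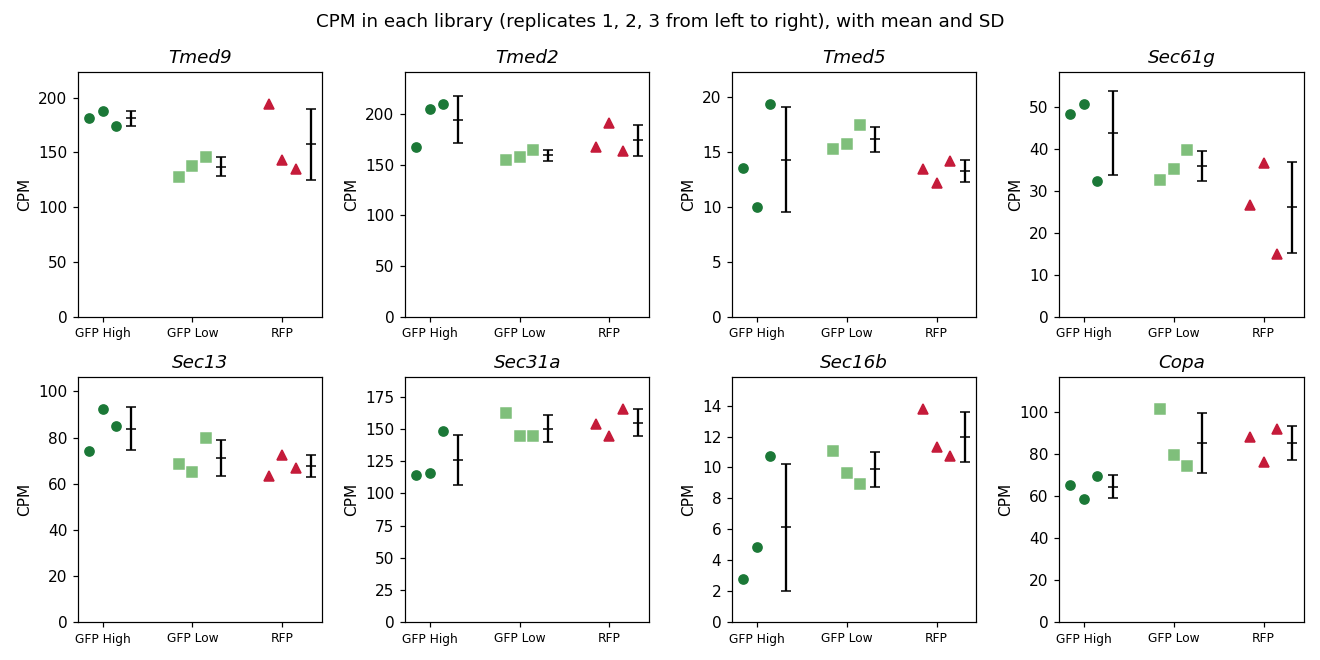
CPM of 8 members in each library (replicates 1 to 3 from left to right in each group), with mean and SD beside them. Tmed9 in GFP High, at 174 to 188 CPM, lies above GFP Low, at 128 to 146, with RFP spanning both, and Copa in GFP High lies below the other 6 libraries.

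The spread between pools was of the size seen for other genes at the same level. At 100 to 1000 CPM, the median coefficient of variation of the 10 members was 9.29% for GFP High, 6.37% for GFP Low and 6.28% for RFP, against 9.65%, 5.61% and 7.27% over all genes. At 20 to 100 CPM it was 12.2%, 10.6% and 8.49% over 17 members, against 16.6%, 9.04% and 9.74%. At 2 to 20 CPM it was 33.2%, 15.8% and 13.4% over 13 members, against 39.1%, 19.8% and 17.9%. GFP High, the group with the fewest eggs per pool, had the highest median of the 3 groups at each level, among the members and among all genes. The part of pool size was not tested. The largest value of a single member was in RFP at 100 to 1000 CPM (20.5% against 15.8% in GFP High) and at 20 to 100 CPM (41.7% against 41.1%). At 2 to 20 CPM it was in GFP High (92.2%).

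The rest of the early secretory pathway was read from 105 further genes in 5 lists: COPII and exit-site partners, the delta COPI subunit with Arf regulators, cargo receptors, tethers with SNAREs, and translocation partners. None was called in edgeR among 103 genes tested in each comparison with RFP and 102 tested between the GFP groups, and DESeq2 and limma-voom called none. An unadjusted edgeR p under 0.05 was reached by 4 of 103 in GFP High against RFP (4.09% of all tested genes). It was reached by 2 of 103 in GFP Low against RFP (2.62% of all) and 4 of 102 between the GFP groups (3.77% of all). In that order the pathway genes were fitted higher in the first group in 54, 57 and 48 cases and lower in 49, 46 and 54. Their median log2 fold changes were 0.01, 0.02 and -0.01.

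Arfgef2, an exchange factor that activates Arf1 at the trans-Golgi, was at 59.9, 68.1 and 81.7 CPM in GFP High 1 to 3, at 92.8, 85.8 and 92.8 in GFP Low, and at 92.9, 83.6 and 106 in RFP. GFP High was the lowest group in every pool, with a change of -0.43 (SE 0.15; unadjusted edgeR p of 0.0179 and adjusted p of 0.997) against RFP and of -0.37 (SE 0.14; unadjusted edgeR p of 0.0208 and adjusted p of 0.998) against GFP Low. Yif1a, a membrane protein of ER to Golgi carriers, was at 0.365, 0 and 0.629 CPM in the GFP High pools, 2.68, 2.83 and 3.82 in the GFP Low pools, and 2.53, 3.07 and 2.78 in the RFP pools. Its GFP High pools lay far below the other 6, with a change of -3.06 (SE 1.17; unadjusted edgeR p of 0.0263 and adjusted p of 0.997) against RFP and -3.21 (SE 1.17; unadjusted edgeR p of 0.0201 and adjusted p of 0.998) against GFP Low, at a level that rests on few reads. Both comparisons use the same GFP High pools.

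In GFP Low against RFP, the smallest p-values of the pathway genes belonged to a tether and to an exit-site protein. Trappc3, a subunit of the TRAPP tethering complex, was at 39.7, 42.5 and 45.4 CPM in GFP Low and at 36.0, 34.4 and 34.3 in RFP, higher in every pool, by 0.29 (SE 0.12; unadjusted edgeR p of 0.0273 and adjusted p of 1.00). Mia2, a cargo receptor of exit sites, was at 384, 411 and 414 CPM in GFP Low and 438, 467 and 454 in RFP, lower in every pool, by -0.17 (SE 0.07; unadjusted edgeR p of 0.0386 and adjusted p of 1.00). By level per length, the COPII-initiating GTPase Sar1b averaged 37.4 RPKM and Sar1a 7.49, while of the receptors that return ER residents, Kdelr2 averaged 24.6, Kdelr1 6.65 and Kdelr3 0.0535. Surf4, a receptor for secreted cargo at exit sites, lay between 109 and 133 RPKM in the 9 libraries.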

How the data were processed

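Poly-A RNA of 9 egg pools was sequenced from both ends of each fragment, per the labels' protocols. The submitters' processing notes name fastp, HISAT2 2.0.5, featureCounts 1.5.0-p3, DESeq2 1.20.0 and build mm10, without roles. The authors deposited 3 tables, 1 per pair of groups, with raw counts, which were the input to all tests here. The deposited tables also hold a normalised signal and FPKM, which entered no test, and the authors' own log2 fold changes with raw and adjusted p-values, which are quoted only by name.

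Tables were joined by gene identifier. In 178 genes that a table lacked, counts were set to 0, with no member count among them. Each pair of groups was fitted on its 6 libraries over all genes with edgeR 4.0.16 (R 4.3.3; filterByExpr, TMM, quasi-likelihood test, no covariate), with Benjamini-Hochberg adjustment over all tested genes and a threshold of 0.05. CPM was scaled by TMM over 9 libraries, and RPKM used the deposited gene length. Intervals are 95% and come from the quasi-likelihood statistic. A count of 3 was the limit of detection and covers counting error only. Fits were tested on simulated data. DESeq2 1.42.0 and limma 3.58.1 (voom) were alternatives. All 46 members had the same coordinates in GENCODE M21 (GRCm38). Look-alike and antisense genes came from that annotation.

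Members, classes and lists were chosen with earlier results of these data known. Values per library are given for the 2 highest members of each class by RPKM, the 3 smallest p-values and every unadjusted p under 0.05 per comparison, and members under 3 counts in a library that passed the filter. The 2 smallest p-values of the other pathway genes are named per comparison.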

Additional observations from a re-analysis of the deposited data

How the results depend on the processing

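The number of members called stayed at 0 in every comparison and alternative except 1, GFP High against GFP Low with DESeq2, which called 1 (Tmed9, log2 fold change 0.41, adjusted p 0.0491; 0.0936% of all genes with an adjusted p). Over the fits that left out each replicate in turn it ranged from 0 to 0. The pathway genes called stayed at 0 in all 51 alternatives. Of the alternative values of named members, 196 kept their direction and side of the threshold, 1 was the Tmed9 value above and 5 turned the sign of Tmed6 in GFP High against GFP Low: -1.26 with limma-voom, -1.71 with the replicate block, -3.31 without the 3 libraries that stood apart by cumulus genes, and -2.84 and -0.22 without GFP High 1 or GFP Low 1, with -2.84 to 0.83 over all fits without 1 replicate. The cause was not tested.

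Medians over members were small and moved. In GFP High against RFP the median was 0.0341 with a mean of at least 50 counts. In GFP Low against RFP it was -0.0453 without the 3 libraries that stood apart by cumulus genes. In GFP High against GFP Low it was -0.00982 with DESeq2, -0.0524 with limma-voom, -0.0289 without a low-count filter, -0.0506 with the replicate block and -0.0579 without those 3 libraries, and leaving out each replicate in turn gave -0.0310 to 0.0121. Cause not tested. Leaving out those 3 libraries and adding pseudogene counts were chosen after seeing the data. Same-numbered replicates showed little shared deviation (correlations of -0.11 to 0.12). Such values cannot show whether same-numbered pools were collected together, and the replicate block changed no member's call. With principal transcript lengths, the ratio of the highest to the lowest subunit became 3.30 for COPII, 2.61 for Sec61 and 7.05 for Tmed. For the rarest tested members, such as Arf2 and Tmed4, intervals reached past a 2-fold change, so depth limits what can be said of them.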
